A study of Mus musculus with 32 samples.

Results

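The comparison asks whether the hippocampus of old mice differed after 14 days of AICAR injections from the hippocampus after 7 days, a month after the injections had ended. It uses 8 of the 32 arrays of the study, chosen by their sample titles: 4 of hippocampus after 14 days and 4 of hippocampus after 7 days. Female C57BL/6J mice aged 23 months received AICAR (5-aminoimidazole-4-carboxamide ribonucleoside) intraperitoneally in saline at 500 mg/kg each day, for 14 days in one group and for 7 days in the other. Both groups were perfused with saline solution and dissected 33 days after the last injection. The study also holds hippocampus after 3 days of AICAR and after 3 days of saline, and gastrocnemius muscle of all 4 treatments, with 4 arrays a group. Nothing in the labels states that the 4 arrays of a group come from 4 mice, so the p-values measure the spread between arrays, which may be technical in part. The labels also number the samples, and every run of 8 numbers covers the muscle and hippocampus of 1 treatment. The 14-day hippocampal arrays carry the numbers 1, 2, 3 and 8 and the 7-day arrays 17, 18, 23 and 24, so handling in such runs and treatment cannot be told apart.

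AICAR enters cells through nucleoside transporters and is phosphorylated by adenosine kinase to ZMP, which mimics AMP and activates AMP-activated protein kinase (AMPK). AMPK senses a fall in cellular energy; it restrains lipid and protein synthesis and, in muscle, raises mitochondrial biogenesis through the coactivator PGC-1α. The hippocampus is the cortical structure of spatial and episodic memory. It consists of the dentate gyrus, where new neurons are added in adult mice, and the fields CA1 to CA3. It borders the lateral ventricle with its choroid plexus, the epithelium that secretes cerebrospinal fluid, and it lies against the thalamus and the meninges, so that a dissection can take up different amounts of these neighbours.

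The tissue label was checked against marker genes. The dentate granule cell genes C1ql2 and Prox1, the CA1 genes Fibcd1 and Wfs1 and the CA2 and CA3 genes Bok and Cpne4 were detected on all 8 arrays, and all 7 CA1 markers with a probe were tested. Of 8 dentate markers with a probe 4 were tested, and Tdo2, Calb1 and Stxbp6 were detected on 0 of the 8 arrays. Of 13 skeletal muscle markers with a probe 4 were tested. Acta1 and Pvalb, also a gene of interneurons, were detected on 8 arrays, Mb on 6 and Atp2a1 on 5, while Ckm, Myh4 and Myh1 were detected on 0. The synaptic gene Snap25 and the GABA interneuron gene Gad2 were also detected on 0 of the 8 arrays. A probe without detection, here and below, therefore does not by itself show that its gene is not expressed. A level below is a background-corrected, quantile-normalised log2 intensity, a difference is the 14-day mean minus the 7-day mean on that scale, and a probe counts as detected where its detection p-value on an array is below 0.05.

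No gene was found to differ between 14 and 7 days of AICAR. Of 13659 probes for 9534 genes, 0 (0%) passed an adjusted p of 0.05 in limma, and the smallest adjusted p was 0.689. At an unadjusted p below 0.05 there were 404 probes (2.96%, and 2.99% of genes on their brightest probe). Of these, 173 were higher (1.27%) and 231 lower (1.69%) after 14 days, where 683 would make up 5% of those tested. This count depends on the arrays in the fit. With only the 8 arrays of 14 and 7 days it was 717, with 0 called and a smallest adjusted p of 0.0768 in limma. The 4 arrays of one group all lay above or all below the 4 of the other for 415 probes (3.04%), 200 of them higher (1.46%) and 215 lower (1.57%) after 14 days. The median absolute difference was 0.075, against a median SD of 0.144 within groups.

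Most differences had narrow intervals on the log2 scale used. The 95% interval lay wholly within 1.5-fold in either direction for 12357 probes (90.5%) and within 2-fold for 13525 (99.0%). The median half-width was 0.25. With no filter on dim probes, 24297 of 25697 probes had an interval within 1.5-fold. Probes with little or no signal thus also have narrow intervals, and a narrow interval alone does not bound a change in expression. Like the p-values, the intervals measure the spread between arrays. The intervals were wide for genes of the choroid plexus, the meninges and blood, described below. Of the variance among the 8 arrays, 14.9% lay between the groups, and the median over single probes was 8.8%. Any split of 8 arrays puts part of the variance between the groups, so this share alone shows no difference. Correlations between arrays were 0.989 to 0.993 within the 14-day group, 0.989 to 0.994 within the 7-day group and 0.987 to 0.995 between them. The first principal component of the 8 arrays carried 25.97% of the variance. On it 7-day replicate 4 stood alone at -23.2, with the other 7 arrays between -2.86 and 12.4.

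The background intensity of the arrays was 150 ± 3.2 after 14 days and 158.7 ± 4.4 after 7 days (SD, n = 4 each, exact permutation test, two-sided, p = 0.0857; the smallest p that 4 against 4 allows is 0.0286). Background on the other 8 hippocampal arrays lay between 114.55 and 126.1, so both AICAR groups described here belong to the arrays of high background. The number of detected probes was 13024 ± 177 after 14 days and 12942 ± 217 after 7 days (exact permutation test, p = 0.571). The median deposited intensity of an array, before background correction, was 190.4 ± 8.4 after 14 days and 201.1 ± 3.7 after 7 days (SD, n = 4 each, exact permutation test, p = 0.0571). The number of arrays limits the precision of every value below.

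**Figure D1:**
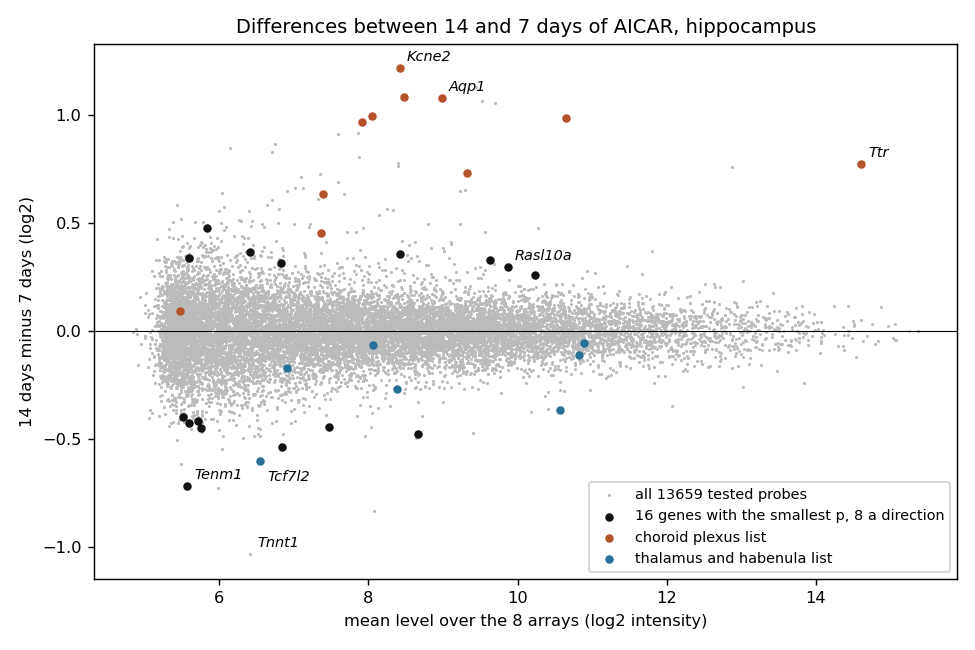
Each grey point is 1 of the 13659 tested probes, with its mean level over the 8 arrays (log2 intensity) on the horizontal axis and its difference, 14 days minus 7 days (log2), on the vertical axis. Most probes lie close to 0, while the choroid plexus list (brown) lies above it, up to 1.22 for Kcne2, and the thalamus and habenula list (blue) below it, down to -0.60 for Tcf7l2; no probe passed the threshold.

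The genes that differ from saline after AICAR were also examined for a further difference between the durations. Of the probes called against saline at both durations, 1517 were higher than saline and their median difference between 14 and 7 days was 0.0096, with the middle of the distribution (quartiles) from -0.049 to 0.070. The 1527 probes lower than saline at both durations had a median of -0.013 and quartiles from -0.066 to 0.039. In these sets 96.3% and 99.2% of the probes had a 95% interval within 1.5-fold, and 0 were called between 14 and 7 days. Of the 10615 other probes 88.4% had such an interval and 0 were called. The background intensity was 146.6 to 153.2 after 14 days and 152.1 to 161.2 after 7 days, against 118.4 to 126.1 on the saline arrays, so the calls against saline cross between arrays of high and low background. Both sets were chosen on values that include the 14-day and 7-day arrays. Calls in the same direction at both durations favour probes with little spread and similar means. Their narrow intervals and medians near 0 are therefore partly set by the choice.

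The means of AMPK genes differed by at most 0.15 between the durations. Prkaa2, the catalytic alpha 2 subunit of AMPK, was at 7.33, 7.36, 6.99 and 7.33 after 14 days and at 7.41, 7.33, 6.99 and 7.28 after 7 days. The lowest array of each group stood at 6.99 and the groups overlapped throughout, with a difference of 0.0040 ± 0.10 (SE) and a 95% interval from -0.21 to 0.22. On a second Prkaa2 probe, detected on 1 of 4 arrays after 14 days and 2 of 4 after 7 days, it was -0.11 ± 0.15. The difference of the first probe was -0.11 when arrays were scaled by their medians in place of quantile normalization. Of 9 tested genes for AMPK subunits and upstream kinases 0 were called and 8 had a positive difference, with a median of 0.022 against -0.0031 over all 9534 genes, of which 48.9% were positive; under median scaling the median of the list was -0.077 and that of all genes -0.13. Prkab1 and Prkab2, the scaffolding beta subunits, stood at 0.15 ± 0.11 and 0.12 ± 0.13. The regulatory gamma subunits Prkag1 and Prkag2 stood at 0.022 ± 0.070 and 0.0016 ± 0.094. Among upstream kinases, Camkk2 was at 0.12 ± 0.13 and Stk11, which encodes LKB1, at 0.075 ± 0.076. Under median scaling the positive list medians given below turned negative, except those of the immediate early, choroid plexus, ependymal and red blood cell lists, and the changes of all lists are read against that shift.

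The list of AMPK targets and energy signalling genes did not stand apart either. Of 16 tested genes, 9 were positive and 0 were called, with a median of 0.019. Eef2k, the kinase that slows translation elongation, had the lowest value at -0.20 ± 0.10. The lipid synthesis enzyme Acaca stood at -0.13 ± 0.11, the autophagy kinase Ulk1 at 0.040 ± 0.079 and the growth kinase Mtor at -0.077 ± 0.081. The genes that take up AICAR and turn over its purine products gave a median of -0.0029 over 15 genes, 7 of them positive. Adk, the kinase that phosphorylates AICAR, differed by -0.0029 ± 0.085, the nucleoside transporter Slc29a1 by 0.089 ± 0.11 and Atic, the enzyme that consumes ZMP, by -0.056 ± 0.11.

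The medians of the mitochondrial lists lay between -0.040 and 0.040. Ppargc1a, which encodes PGC-1α, was at 8.41, 8.33, 8.22 and 8.20 after 14 days and at 8.43, 8.39, 8.44 and 8.59 after 7 days. Its 3 lowest arrays were of the 14-day group, the groups overlapped, and the difference was -0.17 ± 0.10 (95% interval -0.38 to 0.031, adjusted p = 0.999 in limma). Tfam, which packages mitochondrial DNA, stood at -0.15 ± 0.09, and the 11 regulators of mitochondrial biogenesis had a median of -0.040 with 4 positive. Of 32 complex I subunits 25 were positive and 0 were called, with a median of 0.040. Ndufa7 had the smallest p among them, at 11.71, 11.78, 11.77 and 11.71 after 14 days and 11.51, 11.67, 11.60 and 11.58 after 7 days, so the groups did not overlap, as they did not for 288 of all genes (3.02%); its difference was 0.15 ± 0.07. The 35 genes of complexes II to V had a median of 0.037 with 26 positive, and the 51 cytosolic ribosomal proteins a median of 0.042 with 39 positive. Rps13 of the small ribosomal subunit stood at 0.20 ± 0.08, again without overlap. Of 27 antioxidant genes 19 were positive, with a median of 0.066. Gss, glutathione synthetase, stood at 0.34 ± 0.13 on its brightest probe and at -0.17 and 0.066 on the others, and the glutathione transferase Gstm5 stood at 0.17 ± 0.07.

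**Figure D2:**
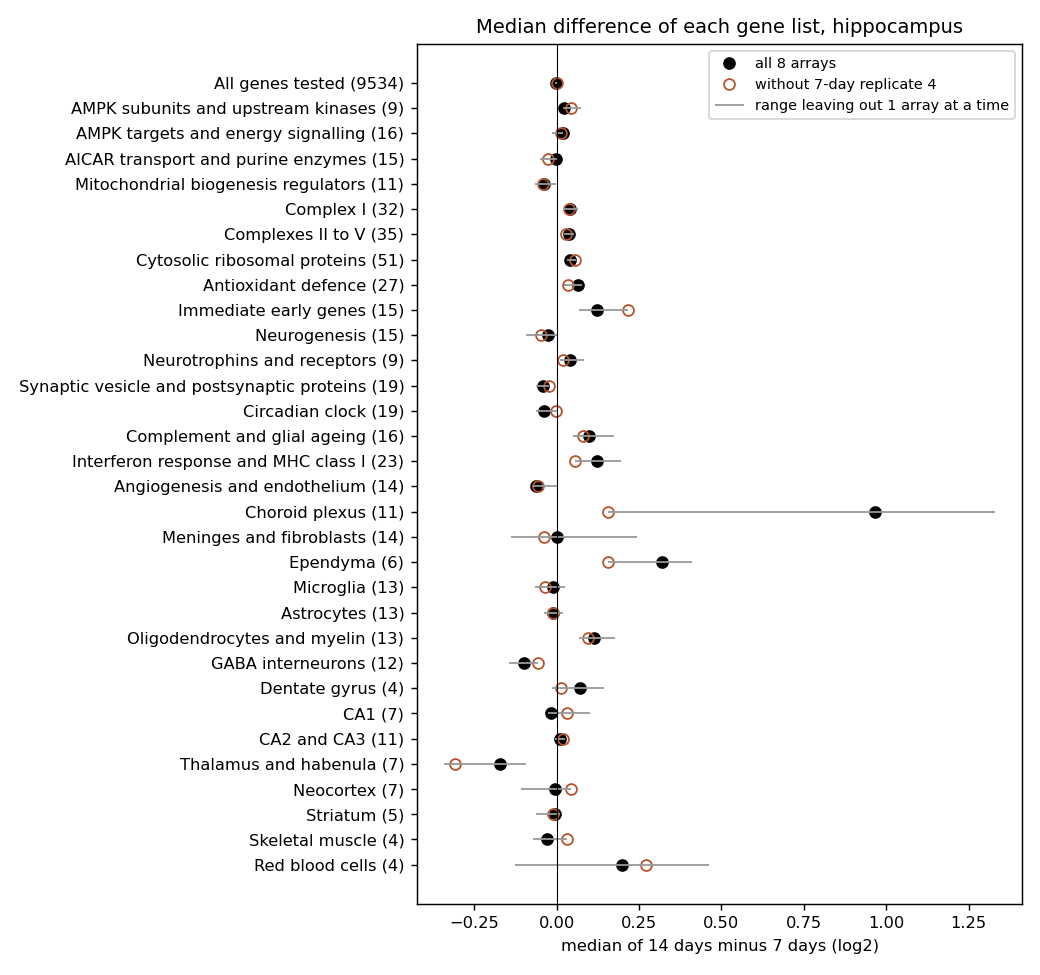
Median difference, 14 days minus 7 days (log2), of each gene list, with the number of tested genes in brackets; filled points use all 8 arrays, open points leave out 7-day replicate 4, and lines span the values obtained by leaving out each array in turn. The choroid plexus list moves from 0.97 to 0.16 without 7-day replicate 4, and most other lists lie within 0.13 of 0.

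Genes of neuronal activity and growth were examined next. Bdnf, the neurotrophin that supports hippocampal synapses, was at 9.33, 9.61, 9.68 and 9.66 after 14 days and at 9.35, 9.42, 9.34 and 9.42 after 7 days. Of its 14-day arrays 3 lay above every 7-day array and replicate 1 lay below them, and the difference of 0.19 ± 0.08 (95% interval 0.019 to 0.35) had an adjusted p of 0.999 in limma. A second Bdnf probe gave -0.24 ± 0.22. The difference for Ntrk2, the receptor of BDNF, was 0.041 ± 0.098, and it became -0.13 under median scaling. A second Ntrk2 probe, detected on all 8 arrays, gave -0.25 ± 0.15, and the other, detected on 1 of 4 arrays in each group, -0.062 ± 0.20. Among 9 neurotrophins and receptors 6 were positive, with a median of 0.041.

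Immediate early genes are switched on within minutes of neuronal firing. Of 15 tested, 13 had a positive difference and 0 were called, with a median of 0.12 (0.063 under median scaling, and 0.067 to 0.22 when each array was left out in turn). Arc, which acts at activated synapses, was at 8.86, 8.82, 9.15 and 9.29 after 14 days and at 8.55, 8.39, 8.59 and 9.07 after 7 days, a difference of 0.38 ± 0.27. The 4 highest Arc values included 3 of the 14-day group, and 7-day replicate 4 lay above 14-day replicates 1 and 2. The zinc finger factors Egr4 and Egr1 stood at 0.31 ± 0.16 and 0.12 ± 0.10, and the AP-1 components Junb and Fos at 0.31 ± 0.22 and 0.13 ± 0.33. The mean of the list was 7.81, 7.75, 7.999 and 8.09 after 14 days and 7.70, 7.65, 7.86 and 7.96 after 7 days, so that the groups overlapped. Klf4, also of this list, was detected on 0 of 4 arrays after 14 days and on 3 of 4 after 7 days.

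Neurogenesis genes gave no common direction. Dcx, the microtubule protein of migrating young neurons, was at 6.29, 6.02, 6.04 and 5.82 after 14 days and at 6.20, 6.58, 6.34 and 6.35 after 7 days. Of the 14-day values 3 lay below all 7-day values, and the difference was -0.32 ± 0.20, with -0.26 ± 0.14 on a second probe. The stem cell factor Sox2 had no overlap, at 7.47, 7.34, 7.42 and 7.28 after 14 days and 7.64, 7.70, 7.48 and 7.57 after 7 days (-0.22 ± 0.08). Neurod2, a factor of maturing excitatory neurons, had none in the opposite direction (0.22 ± 0.09). The Notch target Hes5 stood at -0.43 ± 0.24. Of 15 genes in the list 6 were positive, with a median of -0.025. The probes of Neurod1, Eomes and Neurog2 were detected on 0 of the 8 arrays, which alone does not show that these genes are not expressed. The list of synaptic proteins had a median of -0.041 over 19 genes with 6 positive, and its extremes were Camk2a at 0.20 ± 0.11 and Gap43, a protein of growing axons, at -0.15 ± 0.11. Among 12 markers of GABA interneurons 3 were positive, with a median of -0.10. That median was -0.056 without 7-day replicate 4, whose mean of the list, 9.99, was the highest of the 8 arrays. The GABA-synthesising enzyme Gad1 stood at -0.24 ± 0.15.

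Circadian genes had a median of -0.038 over 19 genes, with 7 positive; it was -0.0029 without 7-day replicate 4 and 0.0039 without 14-day replicate 4. The clock repressor Nr1d2 was at 7.90, 8.17, 7.90 and 7.46 after 14 days and at 7.94, 8.03, 8.61 and 8.37 after 7 days (-0.38 ± 0.18). The groups overlapped through 14-day replicate 2, and the related Nr1d1 stood at -0.029 ± 0.15. Rora, which activates clock genes and is also a thalamic marker, stood at -0.27 ± 0.12 and at -0.13 without 7-day replicate 1.

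The medians of the immune and glial lists lay between -0.012 and 0.12, and the positive ones turned negative under median scaling. In the list of the interferon response and MHC class I, 20 of 23 differences were positive and 0 were called, with a median of 0.12 (-0.032 under median scaling, 0.057 without 7-day replicate 4). The immunoproteasome subunit Psmb8 had the smallest p, at 5.91, 6.12, 6.00 and 6.36 after 14 days and 5.67, 5.91, 5.77 and 5.43 after 7 days. The groups met only at 5.91, where the lowest 14-day array lay just under the highest 7-day array, and the difference was 0.41 ± 0.16. The list of complement and glial ageing held 13 positive differences among 16 genes and had a median of 0.099 (-0.051 under median scaling), with C1qa at 0.22 ± 0.17, C4b at 0.18 ± 0.14 and Apoe at 0.18 ± 0.10. The 13 microglia markers had a median of -0.011 and the 13 astrocyte markers one of -0.012. Of 13 oligodendrocyte markers 11 were positive, with a median of 0.11 (-0.051 under median scaling), with the myelin enzyme Cnp at 0.22 ± 0.12 and myelin basic protein, Mbp, at 0.11 ± 0.10. In bulk tissue, fewer cells of a type and less RNA per cell cannot be told apart.

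The genes with the smallest p in each direction were taken by rule, and none passed the threshold. Tenm1, a teneurin that links neurons across synapses, had the smallest p of all. It was detected on 0 of 4 arrays after 14 days, at 5.32, 5.15, 5.10 and 5.25, and on 4 of 4 after 7 days, at 5.91, 6.09, 5.79 and 5.92. Against the detection limit of the arrays the mean of Tenm1 was 1.43-fold lower after 14 days (adjusted p = 0.689 in limma). This fold is a point estimate that leaves out the spread between arrays, so a smaller change is possible. The single Tenm1 probe lies near background in both groups.

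The other genes with small p on the lower side were brighter in part. Negr1, an adhesion protein of neuronal growth, was at 7.41, 7.05, 7.47 and 7.05 after 14 days and at 7.57, 7.64, 7.82 and 7.73 after 7 days, without overlap (-0.44 ± 0.13). A second Negr1 probe gave -0.18 ± 0.17. Efna5, an ephrin ligand that guides axons, was at 8.89, 8.25, 8.43 and 8.16 after 14 days and at 9.04, 8.71, 8.98 and 8.90 after 7 days (-0.48 ± 0.14). Its 14-day replicate 1 lay above 7-day replicate 2, and the other 14-day arrays lay below all 7-day arrays. Pank3, a kinase of coenzyme A synthesis, was at 6.81, 6.69, 6.62 and 6.15 after 14 days and at 7.20, 7.04, 7.17 and 7.01 after 7 days, without overlap (-0.54 ± 0.15). The Rab escort protein Chm (-0.45 ± 0.11), the RNA-binding Zfr (-0.42 ± 0.11), the amino acid transporter family member Slc38a11 (-0.40 ± 0.11) and E130309D02Rik (-0.43 ± 0.13) had mean levels below 6 in both groups. All 4 were detected on every 7-day array, while after 14 days Zfr was detected on 4 of 4 arrays, Chm on 3, E130309D02Rik on 2 and Slc38a11 on 1. The second probe of E130309D02Rik stood at 0.18 ± 0.12.

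On the higher side, Rasl10a, a small Ras-like GTPase, was at 9.89, 9.98, 10.002 and 10.19 after 14 days and at 9.70, 9.78, 9.67 and 9.73 after 7 days (0.30 ± 0.08). Ncstn, the nicastrin subunit of gamma-secretase, was at 10.45, 10.29, 10.38 and 10.30 after 14 days and at 10.14, 10.19, 10.08 and 9.98 after 7 days (0.26 ± 0.07). Prr7, a transmembrane protein of the postsynaptic density, was at 9.78, 9.65, 9.82 and 9.93 after 14 days and at 9.35, 9.58, 9.38 and 9.55 after 7 days (0.33 ± 0.10). In each of these 3 genes every 14-day array lay above every 7-day array, with an adjusted p of 0.999 in limma. A second Ncstn probe gave 0.14 ± 0.14. Aktip, an adaptor of Hook-mediated vesicle transport (0.35 ± 0.11), and the histone H3 gene H3c4 (0.36 ± 0.11) also had no overlap. The receptor genes Gpr75 (0.48 ± 0.14) and Mrgpra2b (0.31 ± 0.09) overlapped by 1 array each, and Ttc41 (0.33 ± 0.09) gave -0.011 on its other probe. Gpr75 and Ttc41 were each detected on 4 of 4 arrays after 14 days and on 2 of 4 after 7 days. Histone H3 and Mrgpra genes have near-identical copies, which a probe may not tell apart. In these 16 genes the differences ran from 0.26 to 0.48 on the higher side and from -0.72 to -0.40 on the lower side; 12 of the 16 had no overlap between the groups, which the choice by p favours.

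**Figure D3:**
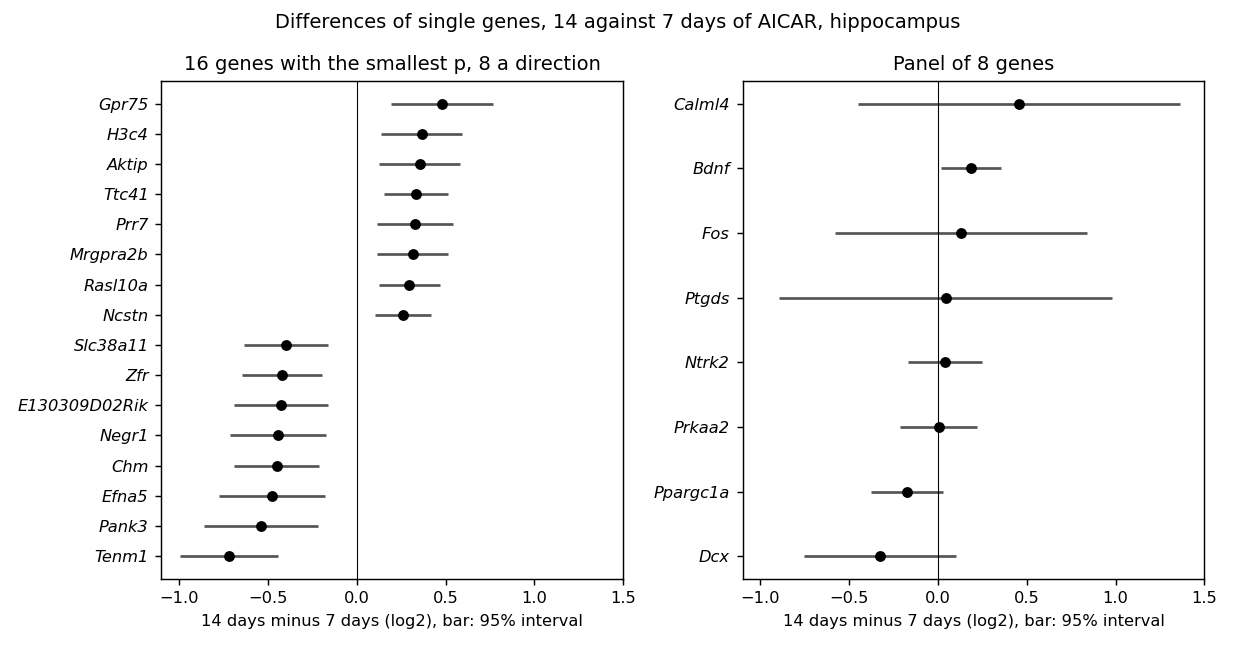
Differences, 14 days minus 7 days (log2, points), with 95% intervals (bars), of the 16 genes with the smallest p, 8 in each direction (left), and of a panel of 8 genes (right). The left intervals lie to one side of 0 because the genes were chosen by p, and in the panel only the interval of Bdnf, 0.019 to 0.35, leaves out 0.

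The largest differences belonged to genes of the choroid plexus, and 1 array decided their size. Of 9534 genes 31 (0.325%) differed by more than 1.5-fold, 25 of them higher and 6 lower after 14 days. Of the 25 that were higher, 23 had their lowest value of the 8 arrays on 7-day replicate 4, and 9 were of the choroid plexus list. Without that array 2 of the 25 kept a difference over 1.5-fold.

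Kcne2, a potassium channel subunit of the choroid plexus epithelium, was at 8.53, 9.76, 9.17 and 8.67 after 14 days and at 8.61, 9.10, 8.13 and 5.42 after 7 days. Its difference was 1.22 ± 0.85 (95% interval -0.58 to 3.01) and 0.42 ± 0.77 without 7-day replicate 4. These SEs pool the spread within all hippocampal groups of the fit, not only within the arrays listed here. The water channel Aqp1 was at 9.34, 10.30, 9.90 and 8.54 after 14 days and at 9.06, 10.06, 9.44 and 5.23 after 7 days, a difference of 1.08 ± 1.24. It was 0.0062 without that array, and the other Aqp1 probes gave 0.58 and 0.92. Ttr, the thyroxine carrier secreted into cerebrospinal fluid, was at 14.87, 15.14, 15.10 and 14.87 after 14 days and at 14.93, 15.10, 14.97 and 11.89 after 7 days. Apart from 7-day replicate 4, the arrays of both groups overlapped for each of these 3 genes. Quantile normalization assigns levels by rank, and it gave Ttr an identical value of 14.8715 on 14-day replicates 1 and 4. This limits what the overlap of Ttr shows.

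The list as a whole followed these genes. All 11 tested choroid plexus genes had a positive difference, with a median of 0.97 (0.81 under median scaling), and 0 were called. Without 7-day replicate 4 the median was 0.16 with 8 of 11 positive, and without any other single array it lay between 0.76 and 1.33. The mean level of the list was 8.96, 9.72, 9.42 and 8.69 after 14 days and 8.80, 9.47, 8.90 and 6.34 after 7 days. All 11 genes had their lowest value of the 8 arrays on 7-day replicate 4, which detected 5 of them, while the other arrays detected 10 or 11. Low values also occurred outside these groups: the list stood at 6.90 and 6.43 on 2 of the 4 arrays of 3 days and at 6.06 on 1 saline array. The secreted proteins Wfdc2 (1.13) and Ecrg4 (1.06), which are not in the list, and Sostdc1 (1.08), the folate receptor Folr1 (0.99), the chloride channel family member Clic6 (0.99) and the homeobox factor Otx2 (0.97) stood at 0.034, 0.18, 0.33, 0.29, 0.16 and 0.25 without that array. Calml4, a calmodulin-like gene, stood at 0.45 ± 0.43 and 0.067 without it. Cox8b, a cytochrome oxidase subunit, shared the pattern, at 9.65, 10.29, 9.70 and 8.58 after 14 days and 9.92, 9.81, 9.15 and 6.74 after 7 days; its difference of 0.65 became -0.074.

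**Figure D4:**
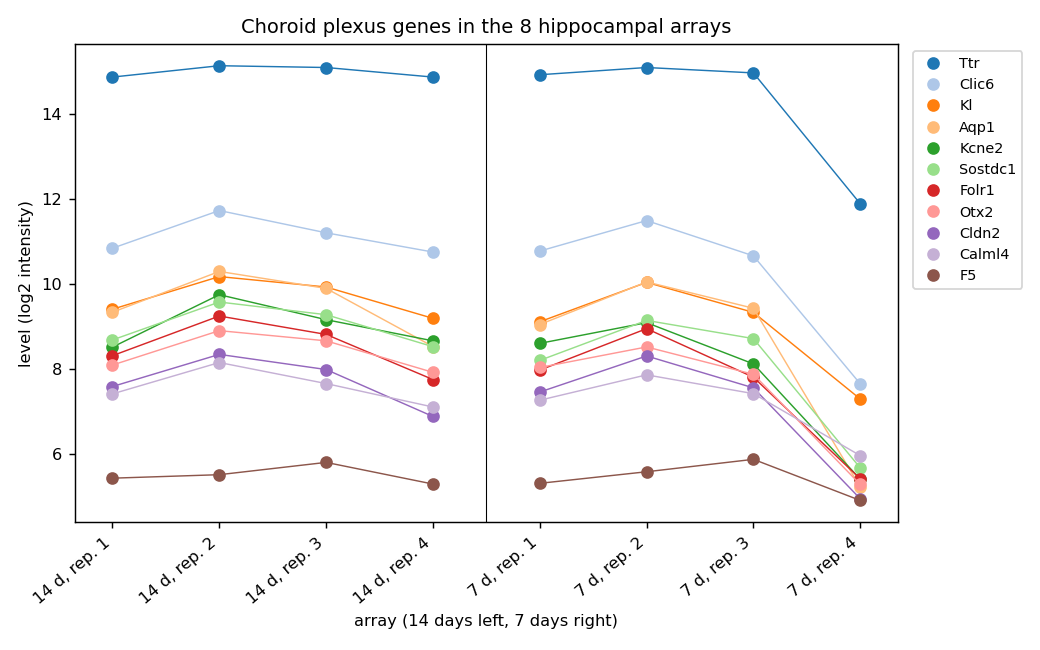
Levels (log2 intensity) of the 11 choroid plexus genes on the 4 arrays of 14 days (left) and the 4 of 7 days (right); lines join the arrays of a gene and imply no order. On 7-day replicate 4 every gene is at its lowest, with Kcne2 at 5.42 against 8.13 to 9.10 on the other 7-day arrays.

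Ependymal genes, of the ciliated cells that line the ventricle, gave 6 of 6 positive differences with a median of 0.32 (0.25 under median scaling), and 0.16 without 7-day replicate 4, on which 5 of the 6 were lowest. Mia stood at 0.65 ± 0.42 and the dynein light chain Dynlrb2 at 0.56 ± 0.55. The part of the dissected choroid plexus and ventricle lining in these differences was not tested.

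Thalamic genes were high on a different array. All 7 tested markers of thalamus and habenula had a negative difference and 0 were called, with a median of -0.17 (-0.28 under median scaling). The mean of the list was 8.82, 8.83, 8.71 and 8.70 after 14 days and 9.63, 8.80, 8.81 and 8.77 after 7 days, and on 7-day replicate 1 6 of the 7 genes had their highest value of the 8 arrays. Tcf7l2, the Wnt effector that marks thalamic neurons, was at 6.61, 5.88, 6.37 and 6.12 after 14 days and at 7.77, 6.56, 6.82 and 6.25 after 7 days (-0.60 ± 0.28). It stood at -0.30 without 7-day replicate 1, and the median of the list at -0.13, with a range of -0.34 to -0.093 over the arrays left out in turn. Prkcd was at 9.36 and Ramp3 at 8.24 on that array, with all other arrays between 7.29 and 8.20 for Prkcd and between 6.49 and 7.14 for Ramp3.

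Tnnt1, the slow troponin T, had the largest difference on the lower side and the same high array. It was at 5.54, 6.16, 5.89 and 6.01 after 14 days and at 9.14, 5.99, 6.34 and 6.27 after 7 days. The difference was -1.04 ± 0.49, and -0.30 without 7-day replicate 1. The defining markers Lef1, Tac2 and Pou4f1 of the thalamus and habenula list were detected on 0 of the 8 arrays, and the part of neighbouring tissue in these differences was not tested.

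Further genes with large differences on the lower side belonged to none of the lists above. Xlr4a, of an X-linked family with near-identical copies, was at 6.31, 7.92, 8.83 and 7.55 after 14 days and at 8.92, 7.91, 8.81 and 8.30 after 7 days (-0.83 ± 0.50, and -0.39 without 14-day replicate 1). Trhr, the receptor of thyrotropin-releasing hormone, was at 6.29, 5.49, 5.54 and 5.16 after 14 days and at 6.15, 6.28, 6.65 and 6.32 after 7 days (-0.73 ± 0.32, and -0.95 to -0.58 when each array was left out in turn). Of its 14-day arrays 3 lay below all 7-day arrays. Col23a1, a transmembrane collagen, stood at -0.55 ± 0.19, and at -0.33 without 14-day replicate 2.

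Prl, the pituitary hormone prolactin, was at 9.46, 5.79, 9.12 and 10.79 after 14 days and at 10.68, 6.80, 7.26 and 7.33 after 7 days, with a difference of 0.78 ± 1.36. Hba-a1, a haemoglobin alpha chain whose copies a probe may not separate, was at 8.53, 11.59, 12.11 and 12.44 after 14 days and at 11.43, 9.19, 11.11 and 11.86 after 7 days. Both groups held low and high arrays for these genes, and the sign of the Hba-a1 difference, 0.27 ± 0.73, changed when 14-day replicate 3 or 4 or 7-day replicate 2 was left out. Of the 4 tested red blood cell genes Alas2 was detected on 1 of 4 arrays after 14 days and 0 of 4 after 7 days, and the median of the list was 0.20.

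Meningeal genes were low on 14-day replicate 2, where 9 of 14 had their lowest value. The transporters Slc6a13 and Slc22a6 stood there at 7.73 and 5.43, against 9.46 to 10.02 and 7.56 to 8.02 on the other 14-day arrays and 9.08 to 9.67 and 7.40 to 7.93 on the 7-day arrays. Ptgds, the prostaglandin D synthase of meninges and choroid plexus, was at 12.58, 11.44, 12.60 and 13.05 after 14 days and at 12.60, 12.47, 12.26 and 12.17 after 7 days. Its difference was 0.044 ± 0.44 (-0.12 under median scaling) and 0.37 without 14-day replicate 2. The median of the 14 genes was 0.0017, and 0.24 without that array. The same array had the highest means of the 8 for the choroid plexus list (9.72) and the ependymal list (7.40).

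**Figure D5:**
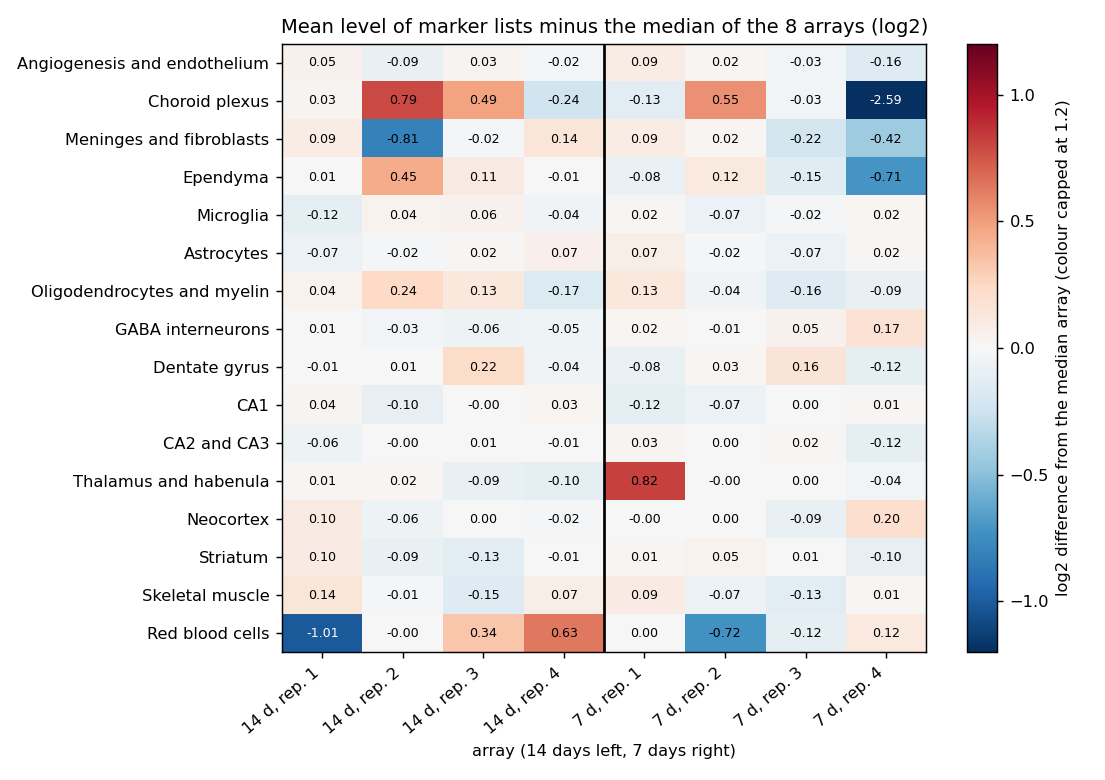
Mean log2 level of each of 16 marker lists on each array minus the median of the 8 arrays, with the 14-day arrays left of the 7-day arrays; colours saturate at 1.2 in either direction. Choroid plexus lies at -2.59 on 7-day replicate 4 and 0.79 on 14-day replicate 2, ependyma at -0.71 on 7-day replicate 4, thalamus and habenula at 0.82 on 7-day replicate 1, meninges at -0.81 on 14-day replicate 2, and red blood cells at -1.01 on 14-day replicate 1, 0.63 on 14-day replicate 4 and -0.72 on 7-day replicate 2.

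The lists for hippocampal neurons had medians between -0.018 and 0.070. The dentate gyrus list had a median of 0.070 over 4 genes (-0.082 under median scaling, -0.014 to 0.14 when each array was left out). The CA1 list had -0.018 over 7 genes, and 0.0996 without 14-day replicate 3. The CA2 and CA3 list had 0.010 over 11. Pou3f1, a CA1 factor, stood at 0.18 ± 0.08 and Grik4, a kainate receptor subunit of CA3, at 0.27 ± 0.12. On 7-day replicate 4 the CA2 and CA3 list stood 0.12 below, and on 14-day replicate 3 the dentate list 0.22 above, the median of the 8 arrays.

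In gastrocnemius muscle, too, 0 probes were called between 14 and 7 days. At an unadjusted p below 0.05 there were 631 of 12977, where 649 would make up 5%. Over 11315 probes tested in both tissues, the difference between durations differed between hippocampus and muscle for 0 probes at an adjusted p of 0.05. At an unadjusted p below 0.05 in limma it did for 395, where 566 would make up 5%. For Ppargc1a the difference was -0.17 in hippocampus and 0.097 in muscle (adjusted p of the tissue difference 0.999). At an adjusted p below 0.05 in limma, the hippocampus differed at 3685 of 13659 probes between 14 and 3 days and at 3572 between 7 and 3 days. These contrasts share the 3-day arrays and cross between arrays of high and low background.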

How the data were processed

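RNA was hybridised to single-colour Illumina MouseRef-8 arrays. Per the file headers, the deposited table gives for each of 25697 probes a raw signal, an intensity on a linear scale, and a detection p-value; per the submitters' processing notes, BeadStudio 1.6.0 was used. A second deposited table holds the authors' values as a score: for each array, the log2 intensities centred on their mean and scaled to unit SD, which was checked against the intensities. Genes were named from the platform table; of the tested probes, 12881 carry a symbol. No genome build is given in the sources used here.

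In R 4.3.3, limma 3.58.1 corrected the background of the 16 hippocampal arrays (normexp, with negative controls inferred through the detection p-values, offset 16), normalized them by quantiles and took log2. Probes with a detection p below 0.05 in 4 or more of 16 arrays were tested with 1 mean per group, 12 residual degrees of freedom and eBayes, two-sided, adjusted over all tested probes by Benjamini and Hochberg. The errors beside differences are model standard errors (SE), those beside means SDs. Hippocampus and muscle were compared in a joint fit of 32 arrays, taken as independent. The fit was tested on simulated data.

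A gene is represented by its brightest tested probe. Named genes are the 8 with the smallest p and the 6 with the largest difference in each direction, the 8 with the largest spread within groups, a panel of 8 and, from each of 31 lists, up to 2 members at an unadjusted p below 0.05; other list members serve as examples of a list. Members, lists and rules were chosen with earlier results of these data known. A gene undetected in 1 group has a bound: the mean of the other group over the lowest detected signal or, where higher, its own. The bound is a point estimate that leaves out the spread between arrays. Alternatives are given in the closing section.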

Additional observations from a re-analysis of the deposited data

Results flagged for a closer look

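In each group of 4 arrays the highest and the lowest value were compared with their nearest neighbour. A gap that took up more of the group's range than Dixon's critical value at 95% was marked, which chance does in about 1 in 20 groups; here 8 of 170 groups were marked. That rate does not hold for Wfdc2, Tnnt1, Col23a1 and Prl, which were named for a large difference or spread. Among genes, Wfdc2, a secreted protein of epithelia, was low on 7-day replicate 4, with a gap of 0.876 of the range (5.61, next 9.76), as was Col23a1 (0.858; 6.15, next 6.35). On 7-day replicate 1 Tnnt1 (0.888; 9.14, next 6.34) and the hormone gene Prl (0.863; 10.68, next 7.33) were high, and so was the mean of the thalamus and habenula list (0.954; 9.63, next 8.81). On the 14-day side Prkaa2 was low on replicate 3 (0.906; 6.99, next 7.33) and the mean of the circadian list was high on replicate 1 (0.945; 8.53, next 8.48). The background intensity of 7-day replicate 2 was low (0.934; 152.1, next 160.6). What set these arrays apart was not tested.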

How the results depend on the processing

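The count of 0 called probes was obtained under every alternative but 2: median scaling in place of quantile normalization and array weights each called 1 probe, Tenm1 (-0.81, adjusted p = 0.0267, and -0.75, adjusted p = 0.0161, in limma), while its difference was -0.23 with no background correction; the cause was not tested. The count is 404 at an unadjusted p below 0.05, 265 to 530 when each array is left out, and 717 when only the 8 arrays are fitted (smallest adjusted p 0.0768). With no filter on dim probes, 24297 of 25697 probes had an interval within 1.5-fold. Nothing in the labels ties arrays of equal replicate number, and 4 correlations of deviations cannot settle whether they are paired (-0.025 to 0.19, 2 of 4 arrays matching their own number best). The fit with the replicate number as a block called 0 probes, 391 at an unadjusted p below 0.05. Median scaling moved the median of all probes to -0.13 and turned Prkaa2 (-0.11), Ntrk2 (-0.13), Ptgds (-0.12), Ndufa7 (-0.013), Gstm5 (-0.0039) and Pou3f1 (-0.010). Prkaa2 was -0.0070 SD units in the authors' series values and -0.034 with array weights, which gave -0.049 for Ptgds. Leaving out each array gave both signs for Hba-a1 (-0.30 to 1.15), Cox8b (-0.074 to 0.99), Prkaa2 (-0.084 to 0.093), Ntrk2 (-0.015 to 0.13), Fos (-0.079 to 0.28) and Ptgds (-0.17 to 0.37). Of the list medians under alternatives, 498 moved by less than the spread between arrays and 29 by more, 23 of these under median scaling. The number of arrays limits the precision, and a probe detected on no array of a group gives only a bound.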

Other observations

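The genes in these 2 paragraphs were chosen after their values were seen, and none passed the threshold. MHC class II genes, which present antigen on macrophages and other antigen-presenting cells, had positive differences: H2-Aa 0.85 ± 0.47, H2-Ab1 0.73 ± 0.46, Cd74, the invariant chain, 0.63 ± 0.42 and H2-Eb1 0.57 ± 0.38 (log2, SE). Cd74 was at 7.39, 8.06, 8.89 and 7.62 after 14 days and at 7.61, 7.67, 7.30 and 6.85 after 7 days. Cd74, H2-Aa, H2-Ab1 and H2-Eb1 were highest on 14-day replicate 3 and lowest on 7-day replicate 4, and without 7-day replicate 4 the differences were 0.46, 0.66, 0.49 and 0.31. The class II chaperone genes H2-DMa (0.11 ± 0.09) and H2-DMb1 (0.13 ± 0.21) differed less. S100a8, a calcium-binding protein of neutrophils, was at 6.56, 5.65, 7.65 and 8.87 after 14 days and at 6.94, 5.43, 7.12 and 5.78 after 7 days, and S100a9, its partner, was detected on 2 of 4 arrays in each group.

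Besides Tenm1, 1 probe, of Zfp593, was detected on 0 of 4 arrays after 14 days and on 4 of 4 after 7 days. Its mean was 1.06-fold lower against the detection limit (unadjusted p = 0.330 in limma). A further 7 were detected on 4 of 4 after 14 days and on 0 of 4 after 7 days. The bounds of these 7, the cation channel Trpm3, the haem synthesis enzyme Cpox, Acer1, Arr3, Gtf3c6, Gm4567 and Cenpm, lay between 1.05-fold and 1.22-fold higher after 14 days. Their smallest adjusted p was 0.999 in limma, with unadjusted p from 0.0056 for Arr3 to 0.063 for Cenpm. The bounds leave out the spread between arrays. Brighter probes of 2 of these genes were detected in both groups: that of Trpm3, on 4 of 4 arrays after 14 days and 3 of 4 after 7 days, stood at 0.66, and at 0.18 without 7-day replicate 4, and that of Gtf3c6, on all 8 arrays, at -0.19 ± 0.09.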
